A study of Mus musculus with 4 samples.

Results

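Lumbar dorsal root ganglia (DRG) on the side of a nerve transection were compared with the ganglia of the opposite side. The comparison takes in all features that reached 1 FPKM (a count of sequenced fragments divided by transcript length and by the library's mapped fragments) in at least 1 of the 2 DRG libraries, which held for 13137 of the 21883 features in the deposited table. The mice were wild-type young adult males of the BL6/C57 strain. Their left sciatic and femoral nerves were transected and RNA was taken 7 days later from the ganglia of lumbar levels 4 to 6. The ipsilateral library holds RNA from the cut side and the contralateral library RNA from the other side, so both come from operated mice and neither is uninjured tissue. The series also has an ipsilateral and a contralateral library of lumbar dorsal spinal cord, which gives 4 libraries with 1 in each group. The sources used here do not say whether a library pools animals or whether the sides come from the same mice. With 1 library a side, the differences below could not be checked against replicates, and no p-value was computed for them.

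A dorsal root ganglion holds the cell bodies of sensory neurons, each wrapped in satellite glia, together with Schwann cells, fibroblasts, vessels and resident macrophages. When the peripheral axon is cut, the cell body is known to switch on transcription factors, growth-associated proteins and a new set of neuropeptides, while many channels, receptors and transmission genes of the mature neuron are turned down. Macrophages are known to gather around axotomised cell bodies. These points are textbook background. The femoral and sciatic nerves carry most, but not all, axons of the ganglia sampled, so uncut neurons share the library with cut ones.

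Each gene is given by its FPKM contralaterally and ipsilaterally, and by the log2 of (ipsilateral FPKM + 1) over (contralateral FPKM + 1), called its log2 ratio. A positive log2 ratio is higher on the cut side. The added 1 FPKM makes the differences of low genes look smaller. A gene is called 2-fold higher or lower from a log2 ratio of 1 or -1. Where a plain fold is given, it divides the deposited FPKM as they stand, and the interval beside it is a 95% interval worked out from the test statistic in the authors' deposited table. It covers these libraries and not the variation between animals. Positions are in mm9.

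Most of the ganglion transcriptome differed little between the sides. The median log2 ratio was 0.05, the 25th and 75th percentiles were -0.17 and 0.27, and 82.0% of features lay within 0.5 of 0. At least 2-fold higher were 400 features (3.04%) and at least 2-fold lower were 103 (0.784%), or 503 together (3.83%). These shares are the background for the counts of each group below. A count near them says nothing particular about its group. Of all features, 56.1% had a log2 ratio above 0 and 43.9% below. Differences of 4-fold or more on the same scale were found for 73 features in the higher direction and 21 in the lower. Short RNA genes, on which a few fragments give a high FPKM, made up 22 of the 2-fold higher and 18 of the 2-fold lower features, which leaves 378 and 85 others. The summed FPKM was 431795 contralaterally and 442298 ipsilaterally. From features listed with single reads, 1 read was worth 0.637 times as much FPKM in the ipsilateral library. The absolute depth is not known. The precision differed with the level: on the log2 scale, the median standard error from the authors' deposited table was 0.44 at a mean of 1 to 3 FPKM and 0.26 from 30 FPKM.

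The 378 higher genes differed more in their summed level than the 85 lower ones. Together they summed to 3751 FPKM contralaterally and 13161 FPKM ipsilaterally, or 0.87% and 2.98% of all FPKM. Apod, Gap43, Sprr1a, Dcn and S100a11 made up 28.1% of the ipsilateral sum. The 85 lower genes summed to 1292 FPKM contralaterally and 522 FPKM ipsilaterally. The sums depend on the length of each list and on the values that set the calls. They do not show the lower genes to be less abundant per gene. Just inside the 2-fold line lay Coil (5.27 FPKM contralaterally and 11.5 ipsilaterally) and, in the lower direction, the acetylcholinesterase gene Ache (29.5 and 14.3 FPKM). Just outside lay Nrip1 (15 and 31.1 FPKM) and Chchd10 (22.3 and 10.7 FPKM). At the 1 FPKM filter, St6galnac2 (1.0 and 0.480 FPKM) lay just inside and Lck (0.999 and 0.627 FPKM) just outside.

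**Figure D1:**
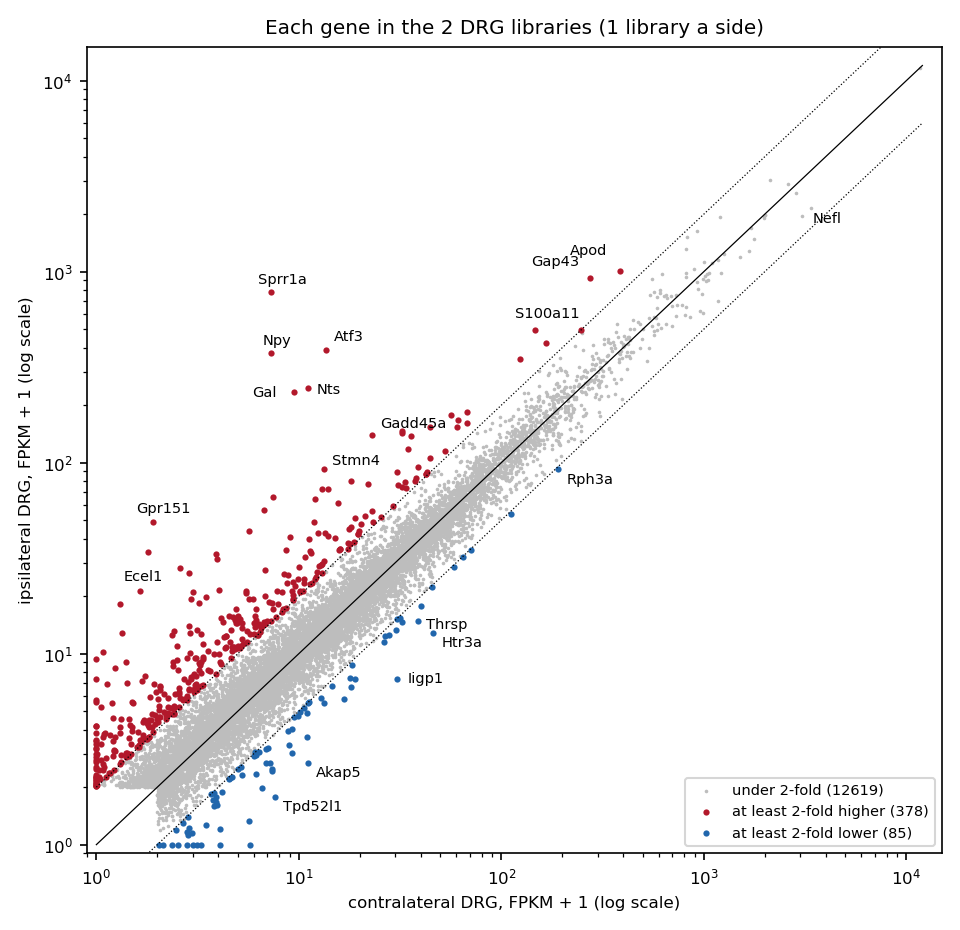
Each point is a gene, placed by its contralateral (x) and ipsilateral (y) FPKM plus 1 on log axes, without short RNA genes. The solid line marks equal levels and the dotted lines a 2-fold difference. The 378 higher genes (red) reach the abundant range with Gap43 and Apod, while 0 of the 85 lower genes (blue) reach 300 FPKM in either library.

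The genes at the top of the ranking were neuronal injury genes. Sprr1a, which encodes a proline-rich protein of regrowing axons, was listed at 6.25 FPKM contralaterally and 782 ipsilaterally (log2 ratio 6.76). After it came the peptide gene Npy (6.26 and 373 FPKM, 5.69), the transcription factor gene Atf3 (12.6 and 389, 4.85), the orphan receptor gene Gpr151 (0.907 and 48.2, 4.69) and the peptide genes Gal (8.47 and 232, 4.62) and Nts (10.1 and 245, 4.47). All of them were also detected on the uncut side. Ecel1, a membrane metallopeptidase of injured neurons, stood at 0.642 FPKM contralaterally and 20.2 ipsilaterally (3.69). Its fold of 31.4 had an interval of 16.4 to 60.1 in the authors' deposited table. Fgf3, a fibroblast growth factor, was nearly silent on the uncut side at 0.077 FPKM and stood at 9.21 on the cut side (3.24). Lipn, a lipase gene, was listed at 0 contralaterally and at 8.41 FPKM ipsilaterally. The serotonin transporter gene Slc6a4 was at 0.24 and 7.38 FPKM (2.76), and the carbonic anhydrase gene Car3 at 2.88 and 32.2 (3.10). The pseudogene Rpl34-ps1 also ranked here (3.80), but the authors' deposited table does not call it (q = 0.151).

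At the bottom of the ranking the differences were smaller. Tpd52l1 was at 6.62 FPKM contralaterally and 0.782 ipsilaterally (-2.10), and the interferon-induced GTPase gene Iigp1 at 29.6 and 6.35 (-2.06). Akap5, which anchors protein kinase A at the membrane, was at 10.1 and 1.68 FPKM (-2.05). For Akap5 the level was 6.00-fold lower, with an interval of 3.98 to 9.05 in the authors' deposited table. The serotonin-gated channel gene Htr3a was at 45.0 and 11.9 FPKM (-1.84). Gng8, a G protein gamma subunit gene, was at 15.7 and 4.76 FPKM (-1.53). Thrsp, a gene of lipid synthesis, was at 37.8 and 13.9 FPKM (-1.38). The peptide gene Cartpt was at 18.0 and 6.41 FPKM (-1.35). Among features at 5 FPKM or more in either library that are not short RNAs, the smallest log2 ratio, that of Tpd52l1, was nearer to 0 than each of the 25 largest.

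**Figure D2:**
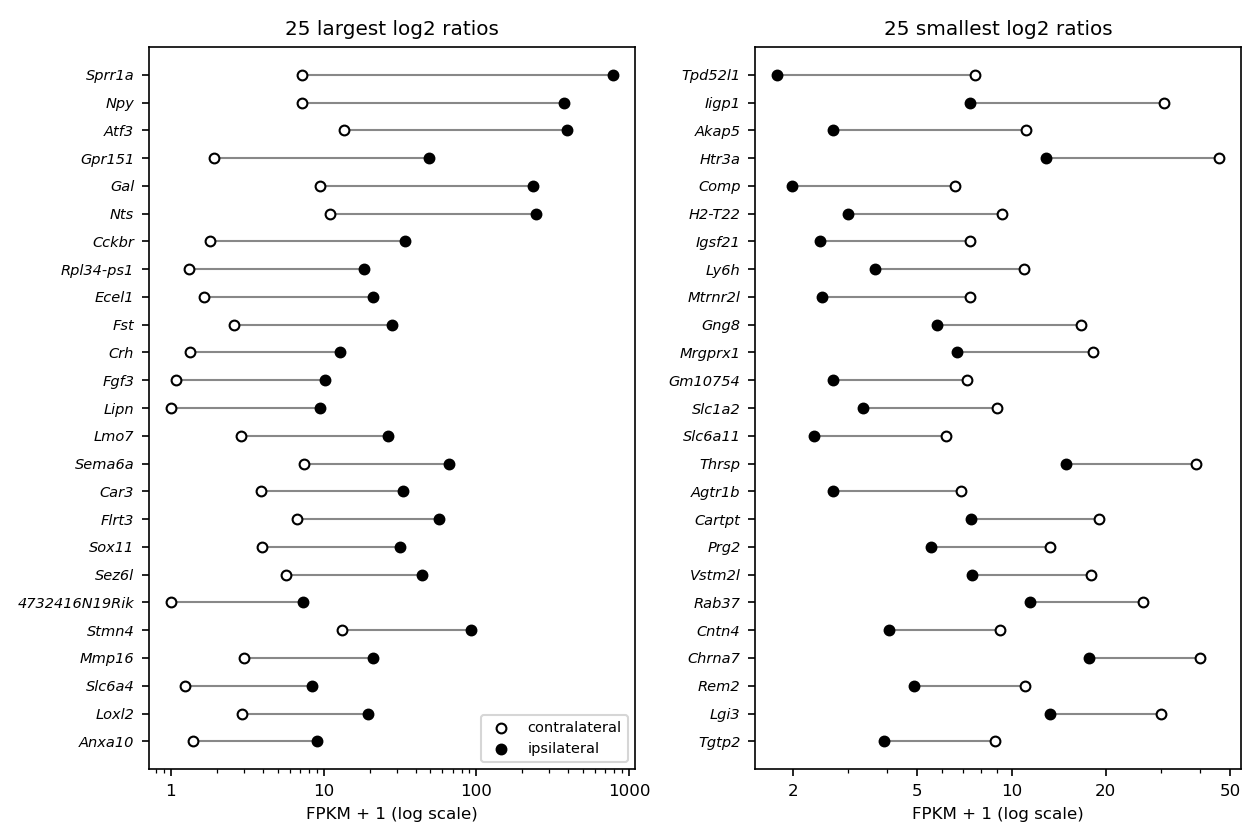
FPKM plus 1 (log scale) in the contralateral (open) and ipsilateral (filled) DRG library for the 25 genes with the largest and the 25 with the smallest log2 ratio among genes at 5 FPKM or more. The lines span larger folds on the left, where Sprr1a goes from 6.25 to 782 FPKM, than on the right, where Tpd52l1 goes from 6.62 to 0.782. The x axes differ in range.

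Promoter sequence could be set beside these levels. RefSeq entries (GRCm38.p6) were found for 9233 of the 13137 features, with 11915 start sites, and the 250 bases before each start were searched on both strands. AP-1 is the dimer formed by Jun, Fos and Atf proteins, and its site TGACTCA occurred in 3.23% of all these promoters. It occurred in 7.89% of the promoters of 2-fold higher genes (25 of 317 promoters, from 252 genes with an entry) and in 1.56% of those of lower genes (1 of 64 promoters, from 53 genes). The 4 examples here, chosen after the matches were known, are shown because the genes are among the highest or most abundant of the 25. Most of the 25 have a single site, so promoters with more than 1 are over-represented among the examples. Lipn, with a larger log2 ratio than Anxa10, and Srxn1, more abundant than Nts, are not printed. Capitals mark the AP-1 site, here in the orientation TGAGTCA.
Sprr1a: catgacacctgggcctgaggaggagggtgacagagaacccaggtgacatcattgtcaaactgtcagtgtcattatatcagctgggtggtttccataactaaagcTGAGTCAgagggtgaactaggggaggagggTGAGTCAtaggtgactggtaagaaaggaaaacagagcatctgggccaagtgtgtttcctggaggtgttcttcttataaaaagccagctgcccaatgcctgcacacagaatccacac
S100a11: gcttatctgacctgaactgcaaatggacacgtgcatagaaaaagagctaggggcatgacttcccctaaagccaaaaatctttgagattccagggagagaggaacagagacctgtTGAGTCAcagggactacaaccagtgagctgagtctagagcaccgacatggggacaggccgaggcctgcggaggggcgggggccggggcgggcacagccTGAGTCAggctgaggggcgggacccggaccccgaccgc
Nts: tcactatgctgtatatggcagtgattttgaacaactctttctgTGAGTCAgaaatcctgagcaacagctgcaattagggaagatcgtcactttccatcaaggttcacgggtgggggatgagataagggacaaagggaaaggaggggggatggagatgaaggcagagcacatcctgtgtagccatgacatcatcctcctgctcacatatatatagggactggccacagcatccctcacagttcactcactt
Anxa10: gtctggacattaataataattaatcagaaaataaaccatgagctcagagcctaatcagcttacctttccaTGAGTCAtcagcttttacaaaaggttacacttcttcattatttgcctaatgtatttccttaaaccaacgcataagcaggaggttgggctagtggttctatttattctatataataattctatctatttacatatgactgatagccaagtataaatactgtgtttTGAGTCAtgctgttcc

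In these promoters, on GRCm38.p6, the sites begin 146 and 116 bases before the start of Sprr1a (chr3:92485882-92486131, minus strand) and 136 and 38 bases before that of S100a11 (chr3:93520246-93520495, plus strand). Nts (chr10:102490419-102490668, minus strand) has 1 site, 207 bases before the start, and Anxa10 (chr8:62123194-62123443, minus strand) has sites at 180 and 16 bases. The calcium-binding protein gene S100a11 was at 146 FPKM contralaterally and 493 ipsilaterally (log2 ratio 1.75), and the annexin gene Anxa10 at 0.398 and 8.05 (2.69). Other higher genes with the site were Plaur, the urokinase receptor gene, with 1 site at 69 bases, Ptgds, the prostaglandin D2 synthase gene, with 1 at 35, and Srxn1, an antioxidant enzyme gene, with sites at 102 and 45. A match describes letters in a window and does not show binding.

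Other motifs were counted in the same way. The cAMP response element TGACGTCA was in 2.51% of all promoters, 1.58% of those of higher genes and 3.12% of those of lower genes. The C/EBP-ATF response element TGATGCAA was in 0.596% of all, 1.58% of higher and 0% of lower. TATAAA was in 6.68%, 12.9% and 9.38% in the same order, CCAAT in 34.7%, 31.5% and 37.5%, and the STAT motif TTCNNNGAA in 5.93%, 7.57% and 7.81%. The GC box GGGCGG, frequent in broadly expressed genes, was in 56.6% of all promoters, 45.7% of those of higher genes and 34.4% of those of lower genes. Overlaps between motifs were not removed. The 2 promoters below show the remaining ATF and cAMP elements in a gene far above and a gene below the uncut side. Capitals mark the C/EBP-ATF response element of Atf3, read from its other strand, and the cAMP response element of Cartpt.
Atf3: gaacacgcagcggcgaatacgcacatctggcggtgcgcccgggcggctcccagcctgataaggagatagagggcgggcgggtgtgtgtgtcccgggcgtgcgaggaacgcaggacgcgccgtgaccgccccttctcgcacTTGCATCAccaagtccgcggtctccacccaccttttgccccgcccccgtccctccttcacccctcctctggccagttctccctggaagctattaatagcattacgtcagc
Cartpt: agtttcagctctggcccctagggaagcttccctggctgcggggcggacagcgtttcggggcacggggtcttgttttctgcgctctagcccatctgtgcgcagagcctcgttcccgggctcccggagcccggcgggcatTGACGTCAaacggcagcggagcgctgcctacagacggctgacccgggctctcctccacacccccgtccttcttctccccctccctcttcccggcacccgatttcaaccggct

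The Atf3 window is chr1:191183334-191183583 and the Cartpt window chr13:99900684-99900933, both on the minus strand of GRCm38.p6.

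The label of the tissue was checked against marker genes of the cells it could hold. All 20 defining markers of DRG neurons were measured, with summed levels of 6384 FPKM contralaterally and 5591 ipsilaterally. Their median log2 ratio was -0.47, with 1 of 20 at least 2-fold lower, 0 higher and 4 above 0. The pan-neuronal gene Uchl1 was at 1001 FPKM contralaterally and 1124 ipsilaterally (0.17). Of 15 spinal cord neuron markers, Zic1 and Gabra5 reached 1 FPKM, and both were above 0 (median 0.44). The 15 summed to 7.33 FPKM contralaterally and 9.51 ipsilaterally. Of them, Pax2, Lbx1 and Mnx1 were listed at 0 in both libraries. A listed 0 can be a failed estimate, since Rpl26, a ribosomal protein gene, and Hmgcs1, of cholesterol synthesis, are also listed at 0 on both sides. Several genes of the central nervous system that stayed under 1 FPKM stood higher contralaterally. The oligodendrocyte genes Mobp (0.998 FPKM contralaterally and 0.038 ipsilaterally), Mog (0.711 and 0.032), Ermn (0.851 and 0.088) and Opalin (0.887 and listed at 0) did so, as did the inhibitory neuron transporter genes Slc6a5 (0.523 and 0.022) and Slc32a1 (0.264 and listed at 0). Others under 1 FPKM stood higher ipsilaterally, among them En1 (listed at 0 contralaterally and at 0.851 ipsilaterally) and Lmx1b (0.075 and 0.384). The part of these central nervous system genes in the results below was not tested. Of 16 skeletal muscle markers 2 reached 1 FPKM. In tissue samples of this kind, fewer cells of a type and less RNA per cell cannot be told apart, and this holds for every group of genes below.

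Macrophage markers had the largest median of the marker lists. Of 26 measured, 17 were at least 2-fold higher, 0 were lower and all 26 were above 0, with a median of 1.17. Their summed level was 192 FPKM contralaterally and 443 ipsilaterally. The scavenger receptor gene Cd163 was at 3.99 and 14.8 FPKM (1.66), and the folate receptor gene Folr2 was listed at 0 and at 2.19 FPKM. Of 23 lymphocyte and natural killer cell markers 2 reached 1 FPKM, and Cd8a and Nkg7 were listed at 0 in both libraries. Neutrophil markers were present and not higher, with 7 measured and 0 past 2-fold in either direction. With those under 1 FPKM, 11 neutrophil markers summed to 312 and 293 FPKM. The 16 measured proliferation genes had a median of 0.08, with 0 past 2-fold.

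Markers of fibroblasts and perineurium and some mast cell proteases also stood higher on the cut side. All 19 fibroblast and perineurial markers were above 0, 6 of them 2-fold higher (median 0.89), with summed levels of 871 FPKM contralaterally and 1463 ipsilaterally. Slc2a1, the glucose transporter gene of perineurium and endothelium, was at 18.9 and 42.7 FPKM (1.13). The connective tissue mast cell proteases Cma1, at 2.27 and 8.05 FPKM (1.47), and Mcpt4, at 4.75 and 11.7 (1.14), were 2 of 6 measured mast cell markers past the line. Kit, which other cells also express, was at 16.3 and 15.7 FPKM. Red blood cell markers summed to 14178 and 13968 FPKM, and 1 of 8, the globin gene Hbb-b1 (6.38 and 17.3 FPKM, 1.31), was 2-fold higher. Myelinating Schwann cell markers had a median of 0.25 over 16 genes and endothelial markers 0.19 over 19, each with 1 gene 2-fold higher. Among central glia markers the glutamate transporter gene Slc1a2 (7.98 and 2.34 FPKM, -1.43), the GABA transporter gene Slc6a11 (5.16 and 1.34, -1.40) and the water channel gene Aqp4 (5.10 and 2.04, -1.0) were 3 of 6 that were lower, and Aldh1l1 was higher (5.22 and 11.5, 1.01). All 13 central glia markers, with those under 1 FPKM, summed to 112 and 93.2 FPKM, and with no filter on low values their median was -0.73. The part of changed cell shares in the results below was not tested.

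**Figure D3:**
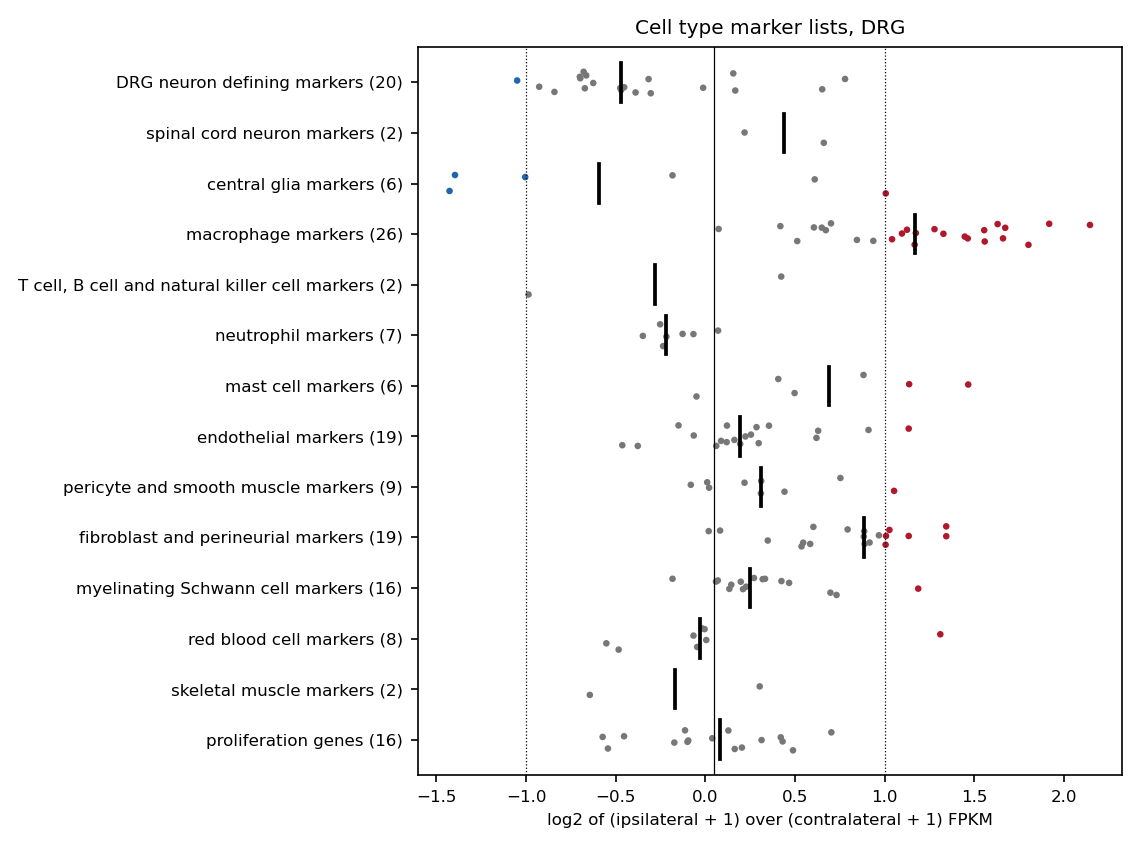
Log2 ratios (x) of the measured members of each cell type marker list, with the number measured in parentheses. Points are genes, red at least 2-fold higher and blue at least 2-fold lower. Thick bars are list medians, the solid line is the median of all features (0.05) and the dotted lines are 2-fold. All 26 macrophage and all 19 fibroblast and perineurial markers lie right of 0, while 16 of 20 DRG neuron markers lie left of it.

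Transcription factors linked to axon injury stood higher as a group. Of 27 measured, 9 were at least 2-fold higher, 0 were lower and 26 were above 0 (median 0.55, against 0.05 for all features). Sox11, a factor of neuronal growth, was at 2.93 FPKM contralaterally and 30.4 ipsilaterally (3.0), a 10.4-fold difference with an interval of 7.04 to 15.3 in the authors' deposited table. The TALE homeobox repressor gene Tgif1 was at 1.5 and 8.29 FPKM (1.89), and the zinc finger gene Klf6 at 43.4 and 105 (1.26). Smad1, the effector of bone morphogenetic protein signalling, was at 14.9 and 34.4 FPKM (1.15), and Jun at 41.8 and 88.5 (1.06). Stat3, a factor controlled mainly by phosphorylation, was close between sides at 80.1 and 91.7 FPKM (0.19). Immediate early genes leaned the same way at lower levels: 16 of 17 were above 0 and 2 were 2-fold higher, the antiproliferative gene Btg2 (2.04 and 6.86 FPKM, 1.37) and Zfp36 (2.88 and 6.87, 1.02), which destabilises mRNA. Fos was at 2.87 and 5.94 FPKM (0.84).

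The arms of the stress response differed in size. Of 35 measured genes of the integrated stress response, which is driven by Atf4, 33 were above 0 and 4 were 2-fold higher (median 0.53). These were Chac1, which degrades glutathione, at 1.4 FPKM contralaterally and 8.07 ipsilaterally (1.92), the pseudokinase gene Trib3 at 0.702 and 2.77 (1.15), and the amino acid transporters Slc7a3 (0.880 and 3.15, 1.14) and Slc7a5 (17.8 and 37.6, 1.04). Atf4 itself was at 82.2 and 146 FPKM (0.82). Of the chaperones of the endoplasmic reticulum, the marks of the unfolded protein response, 0 of 21 passed 2-fold (median 0.11), and the main one, Hspa5, was at 211 and 228 FPKM (0.11). Cytosolic heat shock genes had a median of -0.05 over 23 genes, with 0 past 2-fold. The small heat shock gene Hspb1 was at 74.6 and 142 FPKM (0.92).

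Targets of p53 and growth arrest genes included some of the more abundant higher genes. Gadd45a was at 21.9 FPKM contralaterally and 139 ipsilaterally (2.61), a 6.35-fold difference with an interval of 4.30 to 9.39 in the authors' deposited table. The cell cycle inhibitor gene Cdkn1a was at 31.4 and 146 FPKM (2.18), and the BH3-only gene Pmaip1 at 0.841 and 4.89 (1.68). These were the 3 of 19 past 2-fold, and 17 were above 0 (median 0.42). Mdm2, a core p53 target, was at 12.2 and 15.4 FPKM (0.32). Cell death and survival genes were split, with 2 of 26 2-fold higher and 14 above 0 (median 0.05). Hrk, a neuronal BH3-only gene, was at 0.192 and 4.51 FPKM (2.21). Bax was at 9.98 and 11.3 FPKM (0.16).

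Growth cone and cytoskeleton genes included several abundant genes that were higher on the cut side. Of 52 measured, 9 were at least 2-fold higher, 0 were lower and 37 were above 0 (median 0.36). Gap43, the growth-associated protein, was at 273 FPKM contralaterally and 924 ipsilaterally (1.76). The stathmin gene Stmn4 was at 12.2 and 91.4 FPKM (2.80), while its relative Stmn2, far more abundant, was at 828 and 1516 (0.87). The cell adhesion gene Chl1 was at 12.9 and 71.9 FPKM (2.39), and Flrt3 at 5.71 and 55.7 (3.08). Flrt3 lies inside Macrod2 and the table lists both under the same position, but Macrod2 was at 16.9 and 13.4 FPKM (-0.32).

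Abundant tubulin and neurofilament genes stood on opposite sides of 0. The beta-tubulin gene Tubb6 was at 8.07 FPKM contralaterally and 39.9 ipsilaterally (2.17), Tubb2b at 164 and 422 (1.36), and the alpha-tubulin genes Tuba1a at 1198 and 1934 (0.69) and Tuba1b at 815 and 1311 (0.68). The tubulins resemble each other closely, so reads may be shared between them. With short RNAs left out, the largest difference in FPKM in the higher direction was that of the actin-binding peptide gene Tmsb4x, at 2109 and 3026 (0.52). In the lower direction the neurofilament genes Nefm and Nefl, which set axon calibre, had the largest: Nefm was at 3370 and 2155 FPKM (-0.64), Nefl at 3052 and 1945 (-0.65) and Nefh at 990 and 610 (-0.70). None of the 3 passed 2-fold, and the authors' deposited table does not call Nefm (q = 0.331) or Nefl (q = 0.270).

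Neuropeptide genes parted into a small set at least 2-fold higher and a larger set below 0. Of 21 measured, 6 were at least 2-fold higher, 1 was 2-fold lower and only 9 were above 0, so the median was -0.16. Beside Npy, Gal, Nts and the stress peptide gene Crh, these were Adcyap1, encoding PACAP, at 29.7 FPKM contralaterally and 88.5 ipsilaterally (1.55), and Vgf at 19.4 and 46.8 (1.23). Cartpt was the lower one. Tac1, the substance P gene, was at 131 and 73.8 FPKM (-0.82), and Calca, the CGRP gene, at 365 and 227 (-0.68). Vip was listed at 0 in both libraries. The receptors showed no such set: 1 of 22 was 2-fold higher, the cholecystokinin receptor gene Cckbr (0.803 and 32.9 FPKM, 4.23), and 2 were lower, Sstr2 (2.95 and 0.614, -1.29) and the delta opioid receptor gene Oprd1 (6.06 and 2.20, -1.14). The mu opioid receptor gene Oprm1 was at 5.80 and 2.67 FPKM (-0.89).

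Growth factor pathways were represented by single members and not as a whole. Of 39 trophic factor and receptor genes, 3 were at least 2-fold higher and 1 was lower (median 0.07). The higher ones were Gfra1 (67.0 FPKM contralaterally and 183 ipsilaterally, 1.44), the GDNF co-receptor gene, Inhbb and Igf2. Ret, the kinase that works with Gfra1, was at 116 and 143 FPKM (0.30). Of the interleukin 6 family and its Jak-Stat signalling, 1 of 16 was 2-fold higher and 0 were lower (median 0.36). Socs2, which dampens cytokine signalling, was at 9.95 and 19.4 FPKM (0.90).

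Some TGF-beta family genes that are named for activins or whose products bind them, singled out after their values were seen, were higher. Inhbb, the activin B subunit gene, was at 3.37 FPKM contralaterally and 11.4 ipsilaterally (1.51). Follistatin, encoded by Fst, binds activins and blocks them, and its gene was at 1.57 and 26.9 FPKM (3.44), with a fold of 17.1 and an interval of 9.93 to 29.5 in the authors' deposited table. The type I receptor genes Acvr1 (8.33 and 18.2 FPKM, 1.04) and Acvr1c (0.083 and 2.67, 1.76), which neighbour each other on chromosome 2 (58119864 to 58419239), were also higher. They are grouped here by name, and which ligand they serve in these ganglia was not tested. Inhba, the other activin subunit gene, was at 1.5 and 1.62 FPKM (0.07). The receptor genes Acvr1b (25.3 and 21.4 FPKM, -0.23), Acvr2a (6.83 and 8.15, 0.23) and Acvr2b (0.815 and 0.423, under the filter) did not share the difference. Over the whole list of TGF-beta and Wnt genes, 5 of 39 were 2-fold higher, 0 were lower, 27 were above 0 and the median was 0.25. The Wnt antagonist gene Sfrp4 (5.06 and 14.7, 1.38) was one of the 5.

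Among guidance genes, 2 of 50 were 2-fold higher and 0 lower (median 0.07). This is near the values for all features, of which 3.04% were 2-fold higher, with a median of 0.05. The 2 genes were the semaphorins Sema6a, at 6.45 FPKM contralaterally and 64.7 ipsilaterally (3.14), and Sema3c, at 6.86 and 17.3 (1.22). Sema7a was at 27.2 and 14.4 FPKM (-0.88), and the growth inhibitor gene Rtn4 at 229 and 405 (0.82).

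Genes that remodel the extracellular matrix stood mostly higher. Of 32 metalloproteinase, inhibitor and serpin genes, 8 were at least 2-fold higher, 0 lower and 24 above 0 (median 0.57). Mmp16, a membrane-bound metalloproteinase, was at 2.01 FPKM contralaterally and 19.9 ipsilaterally (2.80), and Adam8 at 2.21 and 17.5 (2.52). In the urokinase system, the receptor gene Plaur (1.86 and 13 FPKM, 2.29) and the protease gene Plau (3.71 and 9.82, 1.20) were past the line. Matrix glycoproteins and proteoglycans had 42 of 46 genes above 0 and 5 at least 2-fold higher (median 0.54), led by the syndecan gene Sdc1 at 12 and 72.1 FPKM (2.50). Collagen chains had 22 of 24 above 0 and 1 past 2-fold, Col6a2 (6.32 and 13.8 FPKM, 1.01), with a median of 0.55. Levels summed over all 42 collagen genes, with those under 1 FPKM, were 272 and 374 FPKM. The laminin-binding integrin gene Itga7 was at 34.8 and 136 FPKM (1.94) and was the 1 of 22 integrin genes past the line, with 15 above 0. Of all features, 3.04% were 2-fold higher. Fibroblast markers were also higher, as given above, but the lists overlap. Dcn (245 FPKM contralaterally and 494 ipsilaterally) and Lum are in both the matrix glycoprotein and the fibroblast list. The part of fibroblasts was not tested.

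**Figure D4:**
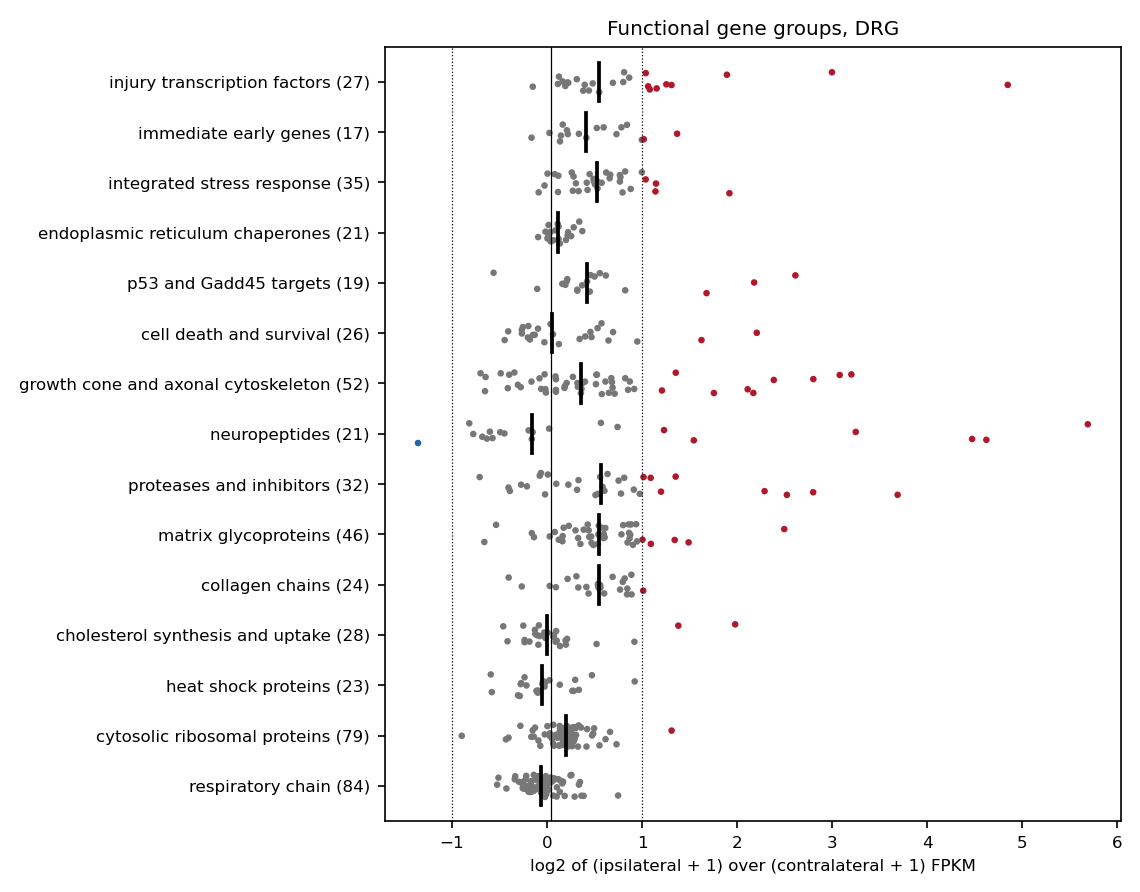
Log2 ratios (x) of the measured genes of 15 functional groups, the number measured in parentheses. Points, bars and lines are as for the marker lists. Injury transcription factors, stress response, protease and matrix groups have medians of 0.53 to 0.57, while the neuropeptides combine a median of -0.16 with 6 genes past 2-fold on the right.

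Lipid and lipid mediator genes had few 2-fold higher members, some of them abundant. Abca1, which exports cholesterol, was at 14.7 FPKM contralaterally and 60.8 ipsilaterally (1.98), and the lipocalin gene Apod, of Schwann cells and fibroblasts, at 383 and 1001 (1.38). These were the 2 genes past 2-fold in a list of 28 named for cholesterol synthesis and uptake, and 14 of the 28 were above 0. Neither of the 2 is an enzyme of cholesterol synthesis. Of all features, 3.04% were 2-fold higher. Next in that list was the synthesis enzyme gene Hsd17b7, at 21.0 and 40.7 FPKM (0.92). The lipid droplet coat gene Plin2 was at 33.7 and 117 FPKM (1.77). Among prostaglandin and leukotriene genes 4 of 18 were 2-fold higher (median 0.40), including Anxa1 (10.9 and 47.9 FPKM, 2.04), whose product restrains inflammation, Ptgds (59.5 and 153, 1.34) and Hpgd (2.27 and 7.75, 1.42), which inactivates prostaglandins. Arginine and polyamine enzymes had 1 of 17 past the line, Arg2 (2.65 and 7.13, 1.16). Odc1, the first enzyme of polyamine synthesis, was at 25 and 49.3 FPKM (0.96), and Gch1, of tetrahydrobiopterin synthesis, at 0.983 and 2.53 (0.83). Cytosolic ribosomal proteins leaned above 0 (68 of 79, median 0.20), and nuclear genes of the respiratory chain leaned below (24 of 84 above 0, median -0.06), with 1 and 0 past 2-fold.

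Genes that make up the excitability of the mature neuron were mostly lower, by modest amounts. All 14 sodium channel subunit genes were below 0 (median -0.44), with 0 past 2-fold. The beta subunit gene Scn4b was at 140 FPKM contralaterally and 77.4 ipsilaterally (-0.84), and Scn11a, encoding Nav1.9, at 105 and 62.9 (-0.73). Of 67 potassium channel subunit genes 12 were above 0, 4 were at least 2-fold lower and 1 higher (median -0.45). Among the lower ones was Kcnh7, of the Erg family, at 31.4 and 13.6 FPKM (-1.15). The higher one, Kcnk16, was listed at 0 contralaterally and at 3.18 FPKM ipsilaterally. Calcium channel subunits had a median of -0.32 over 19 genes, of which 4 were above 0. The 1 member 2-fold higher, Cacna2d1, encodes the auxiliary subunit bound by gabapentin and was at 55.4 and 177 FPKM (1.66), although the authors' deposited table marks its test as failed. With it, levels summed over all 26 calcium channel genes, with those under 1 FPKM, were 365 and 436 FPKM. The pacemaker channel gene Hcn2 was at 29.0 and 16.2 FPKM (-0.80). Chloride channel genes went the other way, with 10 of 12 above 0 and a median of 0.16.

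Receptors and sensors followed the same pattern with exceptions. Sensing channels had 8 of 26 above 0 (median -0.25) and 1 at least 2-fold lower, the cold channel gene Trpm8 at 25.6 FPKM contralaterally and 11.3 ipsilaterally (-1.11). The heat channel gene Trpv1 was at 32.0 and 19.3 FPKM (-0.70) and Trpa1 at 15.1 and 9.36 (-0.64), but the ATP-gated channel gene P2rx3 was at 134 and 231 (0.78). Nicotinic receptor subunits had 2 of 9 at least 2-fold lower, Chrna7 at 38.9 and 16.7 FPKM (-1.18) and Chrnb3 at 3.53 and 1.21 (-1.03), and 2 above 0, among them Chrna5 (0.181 and 1.15, 0.87). Ionotropic glutamate receptor subunits had a median of -0.35 over 14 genes and 0 past 2-fold. GABA and glycine receptor subunits had a median of -0.24 over 11 genes, of which 3 were above 0 and 1 was 2-fold lower. The latter, the glycine receptor gene Glra1, also expressed in spinal cord, was at 4.76 FPKM contralaterally and listed at 0 ipsilaterally (-2.52). Gabrb2 was at 6.96 and 3.85 FPKM (-0.71) while Gabrg1 was at 11.1 and 19.7 (0.78). Mas-related receptors, which mark itch and nociceptor neurons, had 7 of 8 below 0. Mrgprd was at 70.4 and 44.0 FPKM (-0.66).

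Receptors coupled to G proteins for transmitters and lipids had 13 of 42 above 0 (median -0.20), 2 at least 2-fold higher and 1 lower. The sphingosine phosphate receptor gene S1pr2 was at 2.05 FPKM contralaterally and 5.28 ipsilaterally (1.05), and the serotonin receptor gene Htr1b at 10.3 and 4.58 (-1.01). At the synapse, 18 of 53 vesicle and SNARE genes were above 0 and 1 was 2-fold lower (median -0.21). That gene, Rph3a, encodes the Rab3 effector rabphilin and was at 189 and 91.5 FPKM (-1.04). Vamp1 was at 305 and 175 FPKM (-0.79), whereas the vesicle protein gene Syt4 was at 128 and 230 (0.84).

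The transcription factors that define sensory neuron types were mostly lower too. Of 30 measured, 22 were below 0 (median -0.42). Prdm12, required for nociceptors, was at 96.8 FPKM contralaterally and 50.5 ipsilaterally (-0.93), Isl2 at 55.3 and 31 (-0.82), and Etv1, of proprioceptors, at 56.8 and 32.1 (-0.80). Pou4f1, common to all DRG neurons, was at 67.7 and 51.5 FPKM (-0.39). At least 2-fold higher was 1 member, and 0 were 2-fold lower. Hox genes, which record the body level, had 0 of 22 past 2-fold (median -0.13). The summed level of the DRG neuron markers was lower on the cut side (6384 and 5591 FPKM). That marker list is not separate from these groups, since it shares genes with them, among them Prdm12, Scn10a and P2rx3. The part of neuron share in these groups, like that of the central nervous system genes given above, was not tested.

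**Figure D5:**
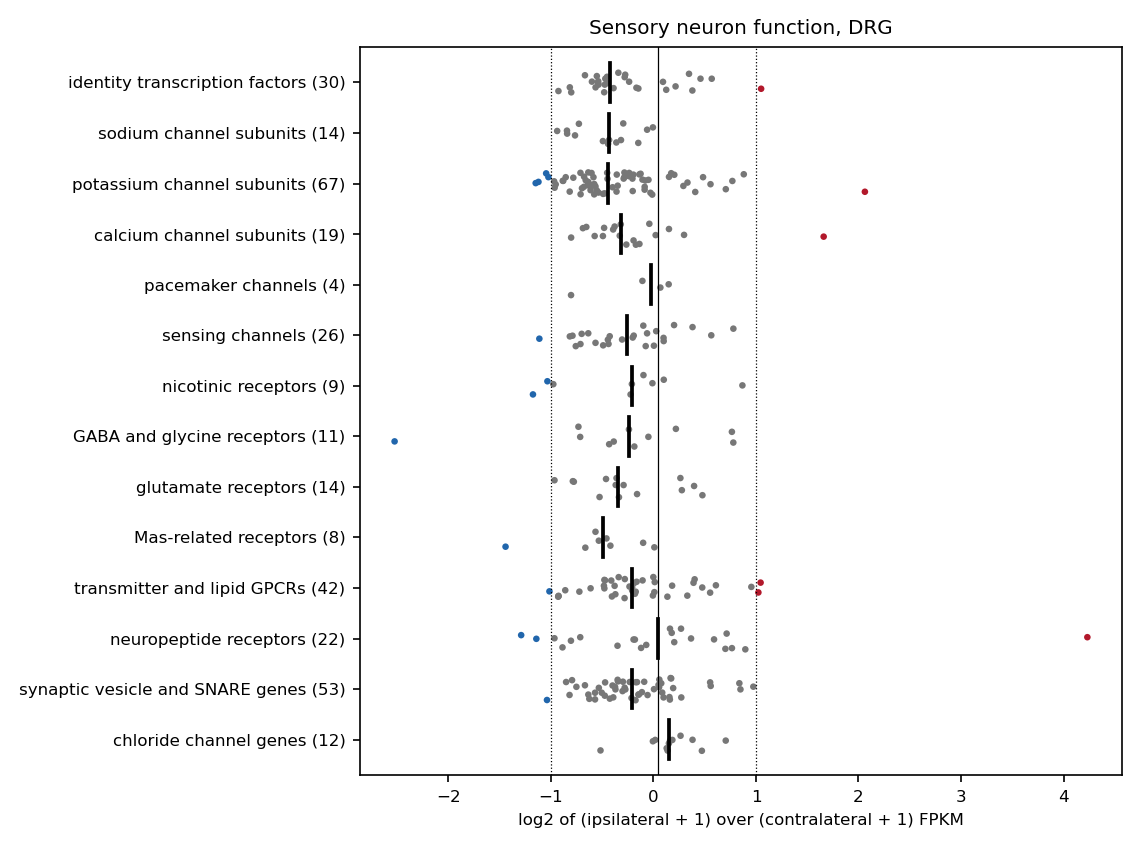
Log2 ratios (x) of the measured genes of 14 groups of sensory neuron function, drawn as for the marker lists. All 14 sodium channel subunits lie left of 0, the potassium channel subunits have a median of -0.45, and the chloride channel genes lie mostly to the right (median 0.16).

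Immune genes did not all lean the same way. Chemokines had 6 of 21 genes at least 2-fold higher and 2 lower (median 0.51), chemokine receptors 3 of 6 (median 1.0), Fc receptors 5 of 7 (median 1.04) and cathepsins 3 of 12 (median 0.37). Of all features, 3.04% were 2-fold higher and 0.784% lower. The filter admits low genes through the side where they are higher. With no filter on low values, the medians were 0.205 over 39 chemokines and 0.085 over 20 chemokine receptors. They were 0.232 over 14 Fc receptors and 0.001 over 22 cathepsins. The TWEAK receptor gene Tnfrsf12a was at 10.2 FPKM contralaterally and 39.0 ipsilaterally (1.84), and the interleukin 13 receptor gene Il13ra1 at 3.62 and 12.3 (1.53). In contrast, all 13 guanylate-binding and immunity GTPases were below 0 and 3 were at least 2-fold lower (median -0.63). Besides Iigp1, these were Tgtp2 (7.84 and 2.92 FPKM, -1.17) and Gbp10 (4.01 and 1.5, -1.0). Genes of the major histocompatibility complex had 17 of 23 below 0, with H2-T22 at 8.29 and 2.01 FPKM (-1.63). With no filter on low values, the medians were -0.563 over 16 of these GTPases and -0.097 over 43 genes of the complex. Copies within these families are near-identical, so their separate values are uncertain. Macrophage markers moved opposite to this group, as given above.

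Some higher genes were neighbours in the genome. Among measured genes in chromosomal order there were 25 runs of 2 or more adjacent genes that were all 2-fold higher, with 59 genes. There were 3 runs that were all 2-fold lower, with 6 genes. Over all features, 3.04% were 2-fold higher and 0.784% lower, and how many runs these shares alone would give was not worked out. The counts of runs are therefore descriptions only. The chemokine genes Ccl7, Ccl11, Ccl12 and Ccl8 lie together on chromosome 11 (81859214 to 81930301). Of these, Ccl11, which attracts eosinophils, was the most abundant at 5.35 FPKM contralaterally and 13.2 ipsilaterally. Sprr1a stands in a run with Sprr2i, Sprr1b and S100a11 on chromosome 3 (92211913 to 93330210), but Sprr1b was at 0 and 1.03 FPKM and Sprr2i at 0 and 1.22. The carbonic anhydrase genes Car1 (0.415 and 6.02 FPKM) and Car3 lie side by side on chromosome 3 (14766214 to 14872373), and the imprinted genes H19 (8.35 and 19.3) and Igf2 (10.6 and 22.4) on chromosome 7 (149761437 to 149856261). In the lower direction, Htr3b, which pairs with Htr3a in the serotonin-gated channel and lies beside it on chromosome 9 (48707318 to 48773095), was at 5.15 and 1.94 FPKM (-1.06).

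Genes past 2-fold in either direction covered shorter stretches of the genome than measured features at large, the lower ones the shortest. Among features with a position of their own, the median span was 14.7 kb for 350 features 2-fold higher, 9.58 kb for 70 features 2-fold lower and 24.2 kb for all 11684. Reads of overlapping genes cannot be told apart without strand, and 1438 measured features share a position with another, 74 of the 2-fold features among them.

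The dorsal cord of the same series, where the central axons end, had 595 of 13351 features 2-fold higher (4.46%) and 219 lower (1.64%). Of the 378 higher DRG genes that are not short RNAs, 274 reached 1 FPKM in cord, and only these could be called there. Without short RNAs, 50 genes were 2-fold higher in both tissues, which is 13.2% of the DRG list of 378 and 8.96% of the cord list of 558. They included macrophage and microglia genes such as C1qa, Csf1r and Tyrobp, the injury genes Atf3, Sprr1a, Npy and Gal, and Anxa10, Adam8, Arg2 and Tubb6. Anxa10 was at 0.040 FPKM in contralateral cord and 2.89 in ipsilateral cord (1.90), and Adam8 at 0.373 and 2.30 (1.26). Other leading DRG genes were close between sides in cord: Nts was at 19.2 and 18.2 FPKM (-0.07), Cckbr at 13.6 on both sides, and Fst at 0.247 and 0.307 (0.07). Of the 85 lower DRG genes, 52 reached 1 FPKM in cord. Lower in both tissues were 4 genes, 4.71% of the DRG list of 85 and 2.01% of the cord list of 199. Akap5 was at 59.2 FPKM in contralateral and 18.2 in ipsilateral cord (-1.65), and Cartpt at 34.8 and 10.1 (-1.69). The others, 1700007G11Rik and Hmgb1-rs17, have no role given here. The tables were normalised separately, so levels are not set across tissues.

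The calls in the authors' deposited table overlapped in large part with the 2-fold lists. That table calls 611 of the 13137 features significantly higher (4.65%) and 259 significantly lower (1.97%). Among them are 337 of the 400 features 2-fold higher and 63 of the 103 features 2-fold lower. These calls in the authors' deposited table compare 1 library with 1 library and so describe the libraries, not the conditions.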

How the data were processed

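RNA of DRG and dorsal cord was sequenced from 4 libraries, each a group of its own. Per the labels' protocols, the RNeasy Mini Kit (QIAGEN) served for total RNA and the ScriptSeq kit (Epicentre) for libraries. The submitters' processing notes name TopHat 1.4.0, Cuffdiff 1.3.0 and build mm9. The sources used here do not give the annotation or strand setting. Deposited were 2 tables of the authors, which hold, per the file headers, FPKM per library and the authors' test statistics, p-values, q-values and log2 fold changes, 1 table per tissue. Starts were raised by 1 to count from 1.

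From the FPKM, log2 ratios with a pseudocount of 1 were computed (Python 3.11.15, pandas 2.3.3, numpy 2.4.6), with a filter of 1 FPKM in either library. The ratio and its counts were checked on simulated data. Standard errors are the deposited log2 fold change over the deposited test statistic. The members and the 42 gene lists and 44 symbol families were chosen with earlier results of these data known, and nothing rests on them as independent evidence. Named by rule were the 25 largest and 25 smallest log2 ratios among features at 5 FPKM or more that are not short RNAs, up to 6 genes per list, the 15 largest rises and falls in FPKM, and the features nearest each threshold. Any other gene was chosen after its values were seen. The alternatives were other pseudocounts, filters, scalings and call rules. Columns of per-sample values left unused number 0. Some genes are not reported here.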

Additional observations from a re-analysis of the deposited data

Results flagged for a closer look

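For 6 features the DRG and the cord differed past 2-fold in opposite directions, each from 1 library a side, and the difference between tissues was not tested. Higher in DRG and lower in cord were the ribosomal protein pseudogene Rpl34-ps1 (log2 ratio 3.80 in DRG and -4.37 in cord), the host gene Snhg9 (1.75 and -3.14), BC096441 (1.91 and -1.77) and BC048507 (1.23 and -1.22). Lower in DRG and higher in cord were Mtrnr2l (-1.57 and 2.28) and 2210404O07Rik (-1.03 and 1.12). Snhg9 was listed at 0 in contralateral DRG and in ipsilateral cord, BC096441 at 0 in ipsilateral cord and 2210404O07Rik at 0 in contralateral cord. No group has 4 or more libraries, so no library could be compared with others of its group.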

How the results depend on the processing

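The counts of 400 features 2-fold higher and 103 lower followed the handling of low values. A pseudocount of 0.1 FPKM gave 679 and 259, and one of 3 FPKM gave 204 and 44. The lower count was 68 with a filter of 5 FPKM and 63 when the call in the authors' deposited table was also required. The higher count stayed within 1.5 times under the remaining settings, and 72.4% to 84.2% of 2-fold features were higher over all settings. Scaling by the median ratio gave 355 and 115, and leaving out features that share a position, an alternative chosen after seeing the data, gave 355 and 74. Of 188 named genes past 2-fold, 0 changed direction under the other pseudocounts and scalings, and 73 came under 2-fold with a pseudocount of 3 FPKM, 15 with median-ratio scaling and 13 with upper-quartile scaling. Of 45 lists with a median of at least 0.2 either way, 40 kept its sign under every list setting. With no filter on low values, some medians were smaller: 0.198 for collagen chains, 0.16 for prostaglandin and leukotriene genes and 0.333 for metalloproteinases, inhibitors and serpins. The median of the macrophage markers stayed at 1.17 and that of the fibroblast and perineurial markers at 0.886. Counts within lists moved too: the 4 integrated stress response genes 2-fold higher became 1 with a pseudocount of 3 FPKM and 2 with a filter of 5 FPKM, and the 2 immediate early genes became 5 and 0 with pseudocounts of 0.1 and 3 FPKM and 1 under each scaling. The cause of these changes was not tested. No paired analysis was possible because each group has 1 library. Depth limits the low genes, where a few reads decide a level.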

Other observations

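The gene groups here were put together after the values were seen, so their counts are descriptions. Of 26 measured genes of the retinoid pathway, which makes, carries and breaks down retinoic acid, 7 were at least 2-fold higher in ipsilateral DRG, 0 were lower and 20 were above 0 (median log2 ratio 0.29). Aldh1a2, which makes retinoic acid, was at 1.44 FPKM contralaterally and 5.16 ipsilaterally (1.33), and Cyp26a1, which degrades it, was listed at 0 and at 2.50. The carrier genes Crabp2 (3.29 and 11.3 FPKM, 1.52) and Rbp4 (1.16 and 5.17, 1.52) and the uptake receptor gene Stra6 (2.29 and 5.81, 1.05) were among the 7. Many of these genes are known from meningeal and perineurial fibroblasts, whose marker list was higher too (summed levels of 871 and 1463 FPKM), and its part was not tested.

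Of 29 measured oxidative stress genes, 4 were 2-fold higher and 0 lower (median 0.18). The sulfiredoxin gene Srxn1 was the most abundant of the 4, at 123 FPKM contralaterally and 349 ipsilaterally (1.5), and Bach1, which represses antioxidant genes, was at 5.79 and 19.0 (1.56). Xanthine dehydrogenase, encoded by Xdh, was at 3.01 and 20.6 FPKM (2.43).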
